A study of Caenorhabditis elegans with 5 samples.

Results

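Chromosome III of Caenorhabditis elegans carried 925 of the 6159 peaks in the combined peak list for ALR-1 tagged with GFP. They were chosen by position alone, as every peak that the list places on III, in coordinates of the WormBase WS190 build. On the same chromosome the replicate 1 list held 245 of its 1628 peaks and the replicate 2 list 638 of its 3994. Binding was mapped by chromatin immunoprecipitation and sequencing (ChIP-seq) in hermaphrodites at the L2 larval stage, with 3 ChIP libraries, of which 2 carry the replicate number 1 and 1 the number 2, and 2 libraries of input DNA, both numbered 1. All libraries came from strain OP200, which is mutant for unc119(ed3) and carries the transgene wgIs200, made of alr-1::TY1 EGFP FLAG C and unc119, and the worms were kept at 20 °C and fixed with 2% formaldehyde. Input DNA came from 10% of each chromatin extract set aside before the ChIP, which used a goat antibody against GFP.

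The transgene was built by recombineering and brought in by bombardment, with tags at the C-terminus of ALR-1, and the submitters state that the fusion protein follows the normal alr-1 pattern. The labels list no mutation of the endogenous alr-1 gene and no library from untagged worms. Whole animals were used, so a site bound in a few cells and a site bound weakly in many cells cannot be told apart.

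ALR-1 is the worm member of the aristaless family of homeodomain transcription factors. It is known for roles in the differentiation of sensory neurons, among them touch receptor neurons, and of motor neurons. Chromosomes of this worm have no single centromere. On each autosome a central region, where recombination is rare and genes are dense, lies between 2 arms with more recombination and more repeats. Chromosome III is also known for its Hox genes lin-39, ceh-13, mab-5 and egl-5. No peak is assigned to these or other genes here, because no WS190 annotation was used.

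Each peak comes with 1 value, the q-value that the authors' peak caller PeakSeq gave for ChIP over background. Strength below means −log10 of that q-value, so that 2 corresponds to a q-value of 0.01 and larger numbers mean smaller q-values. A q-value moves with the number of reads and not with enrichment alone, and strengths from different lists are given side by side as descriptions only.

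Peaks were denser in the middle of III than toward its ends. The stretch between the outermost peaks measured 13.7 Mb, and its middle 40%, from 4.12 to 9.61 Mb, held 487 of the 925 combined peaks (52.6%, Wilson 95% interval 49.4 to 55.8%). This amounts to 88.8 peaks per Mb in the centre, 49.6 in the left arm and 56.9 in the right arm, which held 204 and 234 peaks. The centre was 1.67 times as dense as both arms together. Replicate 1 had 26.1 peaks per Mb in the centre, 12.9 in the left arm and 11.9 in the right, a ratio of 2.10. Replicate 2 had 61.6, 34.0 and 38.9, a ratio of 1.69. All 3 lists thus had the centre densest, and the arms stood in a different order in replicate 1. Combined peaks covered 3.96% of the centre, 2.28% of the left arm and 2.76% of the right arm.

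**Figure D1:**
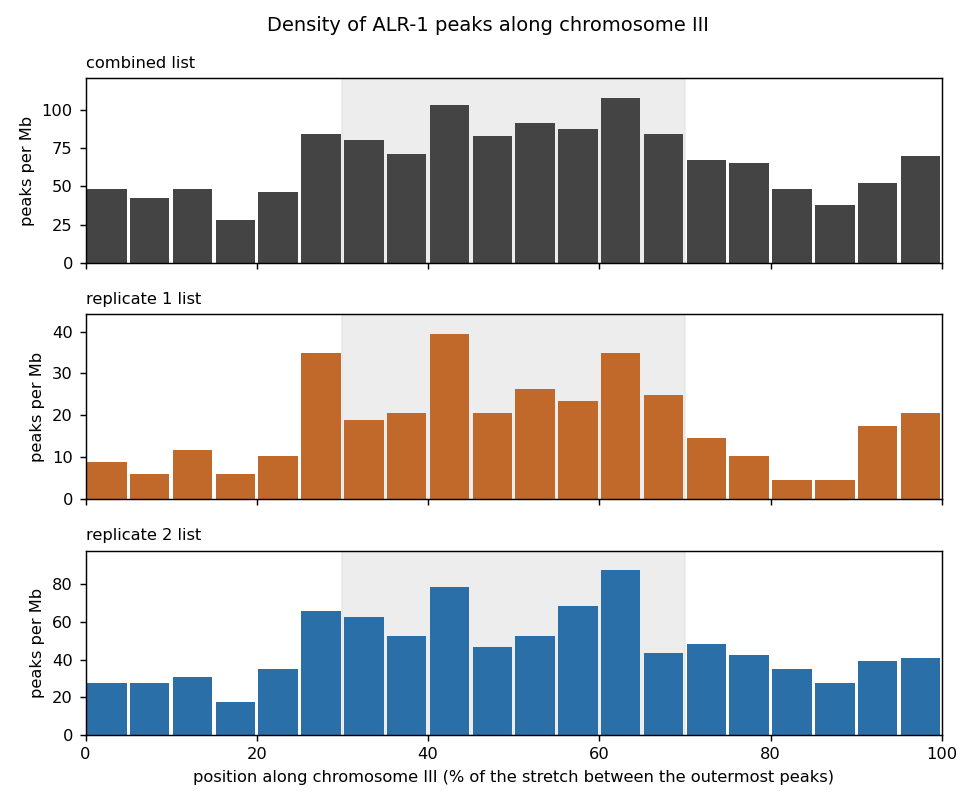
Peaks per Mb in 20 bins of 5% of the stretch between the outermost peaks of chromosome III, for each list, with the middle 40% shaded. The rise begins before the shaded centre, at 25% of the stretch, and in the combined list the highest bin (60 to 65%) reaches 107.9 peaks per Mb and the lowest (15 to 20%) has 27.7.

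The change of density did not fall exactly at the 30% line. In the combined list the bin from 20 to 25% of the stretch had 46.7 peaks per Mb and the next one 84.6. Replicate 1 went from 10.2 to 35.0 and replicate 2 from 35.0 to 65.6 across the same step. On the right side the combined list went from 107.9 peaks per Mb at 60 to 65% of the stretch through 84.6, 67.1, 65.6 and 48.1 to 37.9 at 85 to 90%. Over the first of these steps replicate 1 went from 35.0 to 24.8, and replicate 2 from 87.5 to 43.8. In peaks per Mb this step of replicate 2 was larger than its rise on the left. Density was higher again at the right end, with 70.01 combined peaks per Mb in the last 5%, 20.4 in replicate 1 and 40.8 in replicate 2. By whole megabases the fullest was 8 to 9 Mb, with 108 combined and 84 replicate 2 peaks, while replicate 1 had 32 there and 33 at 5 to 6 Mb. The sparsest was 2 to 3 Mb, with 29, 5 and 19, although in replicate 1 the count was lower still from 11 to 12 Mb, at 3.

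Strength did not follow density. Median strength of combined peaks was 4.28 in the left arm (interquartile range 2.71 to 6.81), 4.13 in the centre (2.78 to 7.25) and 3.90 in the right arm (2.73 to 5.88), and these ranges overlap almost wholly. Median width was 385, 351 and 392 bp in the same order. The peaks that were strongest on III came from all of its regions, as described below.

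Measured in windows of 100 kb, III had a median of 6 combined peaks per window (mean 6.70 ± 3.87, SD over 138 windows). Windows with 10 or more numbered 30, windows with a single peak 8, and empty windows 2. The 5 densest windows held 88 peaks, 9.51% of all on III, and all lay in the centre. Counts of replicate 1 and replicate 2 peaks per window were related across the 138 windows (Spearman's rho 0.61, Pearson's r 0.66). This is a description, since the windows share libraries and a common rise toward the centre.

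The densest window was 6.6 to 6.7 Mb, with 21 combined peaks. Most of these were weak: the median strength was 3.35, below the 4.10 of all combined peaks on III, and 12 of the 21 overlapped neither replicate list. Replicate 1 had 3 peaks there and replicate 2 had 9. Over all combined peaks the share in neither list was 29.4% on III and 33.2% in the whole series. The strongest combined peak of the window, at 6694911 to 6695589, had a strength of 13.1, and it had 6.15 in replicate 1 and 4.67 in replicate 2. The next strongest, at 6677833 to 6678407, had 8.74. Beyond this window lay the longest stretch of the centre without a combined peak, 93.2 kb from 6710298 to 6803502.

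The window from 7.5 to 7.6 Mb ranked second with 18 combined peaks, and it was the best supported of the dense windows in replicate 1, where its 7 peaks tied for the highest count. Replicate 2 had 14 peaks there. All 18 fell within 60.4 kb, from 7520569 to 7580963. A stretch of 88.04 kb to their left, from 7400174 to 7488214, held no combined peak and no whole peak of either replicate list. Of the 18, 5 overlapped both replicate lists, 9 replicate 2 alone, 2 replicate 1 alone and 2 neither. Over all combined peaks on III, 21.5% overlapped both lists and 29.4% neither (20.0% and 33.2% in the whole series). Combined strengths in the window ran from 2.09 to 15.0 with a median of 4.76.

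The 3 strongest peaks of that window stood within 10 kb of each other. The first, at 7552750 to 7553171, had a strength of 15.0 in the combined list, 3.17 in replicate 1 and 11.1 in replicate 2. The second, at 7557898 to 7558189, had 13.2, 5.08 and 7.49. The third, at 7548857 to 7549221, had 11.6, 2.81 and 8.23. Each of the 3 was between 292 and 422 bp wide, within the interquartile range of combined peaks on III (279 to 513 bp). All 3 were stronger in replicate 2 than in replicate 1. A closer group of 5 peaks lay to their left, between 7531811 and 7536926, with strengths of 5.49, 8.33, 5.71, 8.33 and 4.91 in order along the chromosome. Replicate 2 overlapped the last 4 of these and replicate 1 the first 2.

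The window from 8.8 to 8.9 Mb held 17 combined peaks and was the fullest window of III in replicate 2, also with 17, whereas replicate 1 had 5. Its peaks fell into separate groups. The first 5 lay between 8799762 and 8831877, then 39804 bp followed without a combined peak, although replicate 2 had 2 weak peaks in that gap, at 8840491 to 8840643 (strength 2.43) and 8847710 to 8848000 (2.16). Another 11 peaks lay between 8871682 and 8889243, and the last stood alone at 8899716 to 8899988.

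The strongest peak of that window, at 8799762 to 8800970, was 1209 bp wide with a combined strength of 11.3 and 17.5 in replicate 2, and had no replicate 1 peak. The second, at 8871682 to 8872185, had 10.9 in the combined list, 3.30 in replicate 1 and 8.62 in replicate 2. The third, at 8887138 to 8887506, had 9.68, 3.83 and 5.58. The peak that was strongest in the combined list and in replicate 2 was thus the one of the 3 that replicate 1 lacked. Over the whole window 5 peaks overlapped both replicate lists, 9 replicate 2 alone and 3 neither. The shares over all combined peaks on III were 21.5%, 44.4% and 29.4% (20.0%, 41.1% and 33.2% in the whole series).

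**Figure D2:**
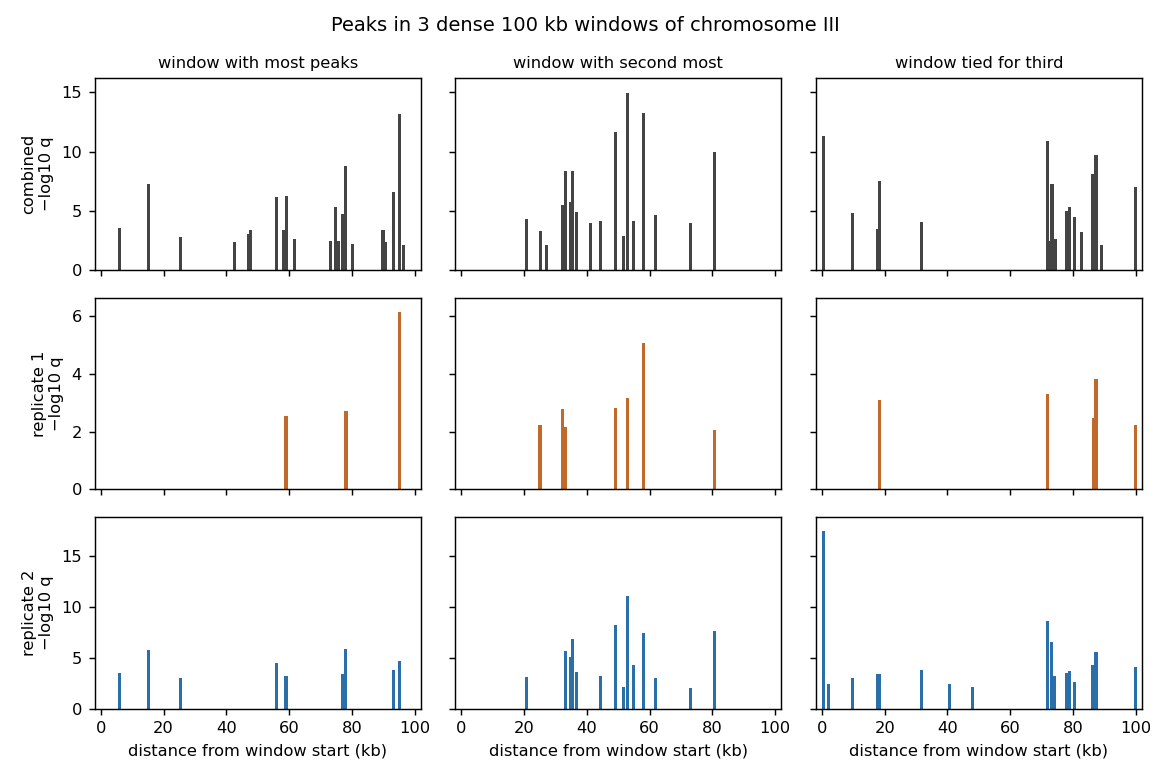
Strength (−log10 q) of each peak against its distance from the window start in kb, in 3 windows of 100 kb (columns, from left: 6.6, 7.5 and 8.8 Mb) and the 3 lists (rows, with different vertical scales). Bars are drawn 1 kb wide, wider than most peaks. The first window has 21 combined peaks but 3 in replicate 1, the second has 18 and 7, and in the third the peaks stand in separate groups.

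The other 2 of the 5 densest windows were 8.2 to 8.3 Mb with 17 combined peaks and 8.9 to 9.0 Mb with 15. In the former, 5 replicate 1 and 13 replicate 2 peaks were listed, and 5 of the 17 combined peaks overlapped both lists (21.5% over all of III, 20.0% in the whole series). Its strongest peak, at 8217254 to 8217548, had 16.0 in the combined list, 4.54 in replicate 1 and 11.1 in replicate 2. In the latter, replicate 1 had 2 peaks and replicate 2 had 10. With windows moved by 50 kb the fullest was 8.85 to 8.95 Mb with 18 peaks, and the one after it was 6.65 to 6.75 Mb with 16. Rank among dense windows therefore depended on where the windows began. The highest count per window on III, 21, was matched on I and V, was 19 on II and was 16 on IV and X.

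Combined peaks under 1 kb apart formed 96 runs on III. Pairs made up 73 of these, 18 held 3 peaks, 4 held 4 and 1 held 5, so that 221 peaks (23.9%) had a neighbour within 1 kb and 704 did not. The run of 5 lay at 9268968 to 9272424, spanned 3.46 kb and had strengths from 3.11 to 10.3, with 1 replicate 1 and 3 replicate 2 peaks. The largest of the runs of 4 were at 7977169 to 7980856, with strengths from 2.41 to 4.03 and 2 replicate 2 peaks, and at 8982052 to 8985546, with 2.11 to 9.31 and 1 replicate 2 peak. Neither of these 2 runs had a replicate 1 peak. Peaks in runs were in the centre in 66.1% of cases and peaks that stood alone in 48.4%, against 52.6% of all combined peaks on III. Whether this goes beyond the higher density of the centre was not tested. The median strengths of peaks in runs and of peaks alone were 4.34 and 4.07.

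Spacing differed between the regions in the way the counts imply. The median distance between neighbouring combined peaks was 7322.5 bp over all of III (interquartile range 2147 to 18792 bp, 924 distances). It was 5150.5 bp in the centre, 11136 bp in the left arm and 9103 bp in the right arm. The smallest distance was 200 bp, in the combined list. Distances under 1 kb made up 17.1% of those in the centre, 9.85% in the left arm and 9.44% in the right arm. Replicate 1 peaks had a median distance of 27373 bp and replicate 2 peaks 11345 bp, as their lower numbers require.

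**Figure D3:**
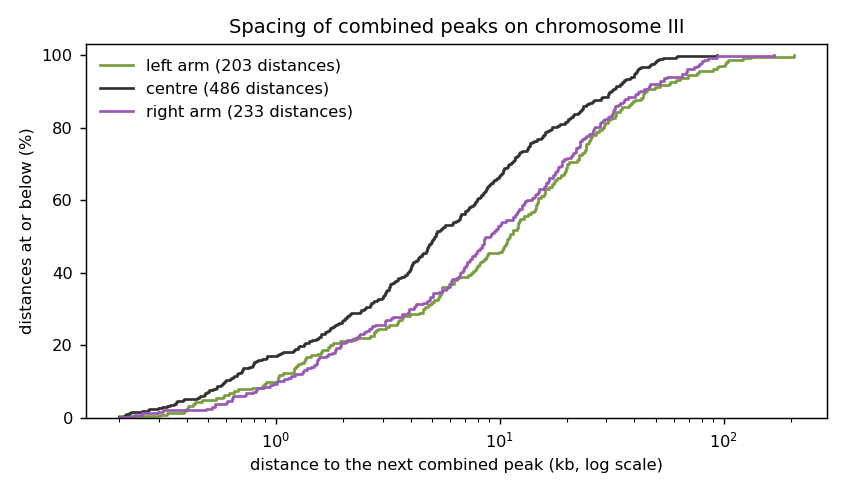
Cumulative share of distances between neighbouring combined peaks, in kb on a log scale, for the left arm, centre and right arm of chromosome III. The centre curve lies above the arms over most of the range, with medians of 5150.5 bp in the centre, 11136 bp in the left arm and 9103 bp in the right arm.

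Long stretches without a combined peak were found mostly in the arms. Of the 46 stretches over 50 kb, 18 were in the left arm, 19 in the right arm and 9 in the centre, and 42 of the 46 contained no whole replicate peak either. Over 100 kb there were 7, of which 6 were in the left arm and 1 in the right. The longest measured 205.8 kb, from 154541 to 360375, near the left end. It followed a peak of strength 11.4 that overlapped both replicate lists. The second, from 11473930 to 11641229 in the right arm, measured 167.3 kb and lay between peaks of 2.36 and 2.69 that overlapped neither list. The next were 133.1 kb from 2815377, 122.7 kb from 2130422, 104.6 kb from 1279577 and 102.8 kb from 1430355. None of these 6 stretches contained a whole peak of either replicate list.

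The replicate lists had longer stretches of their own. In replicate 1 no peak lay between 11059978 and 12015580, a stretch of 955.6 kb, where the combined list had 40 whole peaks and replicate 2 had 31, the strongest with 10.7 and 12.2. Replicate 1 was also empty for 513.7 kb from 154508, where replicate 2 had 9 whole peaks. The longest stretch without a replicate 2 peak, 322.2 kb from 2053747 to 2375907, had 5 whole combined peaks and no whole replicate 1 peak. However, 1 peak of each of these 2 lists reached into its right edge, and 1 combined peak into its left edge. Without read depth, an absent call does not show absent binding.

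Median peak widths lay close together in the 3 lists, and the tails differed. Combined peaks had a median width of 368 bp (interquartile range 279 to 513 bp), replicate 1 peaks 353 bp and replicate 2 peaks 354.5 bp. The range in the combined list ran from 2 to 4288 bp, with 43 peaks under 100 bp and 12 over 2000 bp. Replicate 1 peaks ran from 3 to 3782 bp, with 4 under 100 bp and 5 over 2000 bp. Replicate 2 peaks ran from 9 to 2353 bp, with 5 and 2. The 12 wide peaks were 1.30% of the peaks on III, and elsewhere that share lay between 1.09%, on IV, and 2.05%, on X.

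The widest, at 12612191 to 12616478, had a strength of 9.81 and overlapped a replicate 2 peak of 12.2 but no replicate 1 peak. The second widest, at 9700988 to 9704776, had 10.8, with a replicate 2 peak of 8.57 and none in replicate 1. The third, at 9051198 to 9054984, was the reverse case. It was 3787 bp wide and ranked 4 on III with 27.3, and it overlapped the strongest replicate 1 peak of III (32.6, rank 8 in that list), while the nearest replicate 2 peak was 17205 bp from that replicate 1 peak. Of the 12 wide peaks, 3 overlapped both replicate lists, 5 replicate 2 alone and 4 replicate 1 alone. Over all combined peaks on III these shares were 21.5%, 44.4% and 4.65%, and in the whole series 20.0%, 41.1% and 5.67%.

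At the narrow end, 38 of the 43 peaks under 100 bp (88.4%) overlapped neither replicate list and 5 overlapped replicate 2 alone. The median strength of these 43 was 2.48. Over all widths the share in neither list was 29.4% on III and 33.2% in the whole series. Shares by width were not worked out for other chromosomes. The narrowest were 2 bp at 26752 to 26753 (strength 2.75), 2 bp at 6803503 to 6803504 (2.22) and 3 bp at 9093971 to 9093973 (2.22). Peaks of 2 or 3 bp are shorter than the DNA that a homeodomain contacts, so their width is not the extent of bound DNA. The share that overlapped neither list was 51.0% for widths from 100 to under 300 bp, 19.2% from 300 to under 600 bp and 8.70% from 600 bp to under 1 kb. It was higher again, at 19.0%, among the 42 peaks of 1 to 2 kb, where it rests on 8 peaks. Of the 12 wider ones, 0 were in neither list.

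Both replicate lists overlapped 199 of the 925 combined peaks (21.5%, Wilson 95% interval 19.0 to 24.3%), against 20.0% in the whole series. Replicate 2 alone overlapped 411 (44.4%), against 41.1% in the whole series, and replicate 1 alone 43 (4.65%), against 5.67%. The other 272 (29.4%, 26.6 to 32.4%) overlapped neither, against 33.2% in the whole series. Peaks in both lists had a median strength of 10.6 and a median width of 430 bp. The medians were 4.49 and 389 bp for replicate 2 alone, 4.23 and 400 bp for replicate 1 alone, and 2.48 and 263 bp for neither. Whether the combined peaks were called from the reads behind the replicate lists is not stated, so membership and combined strength may not be independent measures.

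Ordered by strength and divided into 5 groups of 185, the combined peaks of III changed membership steeply. Other chromosomes were not grouped in this way, so the change is not shown to be particular to III. In the strongest group, from 7.88 to 38.4, 148 overlapped both lists (80.0%), 36 replicate 2 alone, 1 replicate 1 alone and 0 neither. In the next group, from 4.98 to 7.83, 44 overlapped both and 2 neither. In the middle group 7 overlapped both and 29 neither. In the weakest group, from 2.00 to 2.55, 0 overlapped both and 150 neither (81.1%). The weakest combined peak that overlapped both lists had a strength of 4.32.

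**Figure D4:**
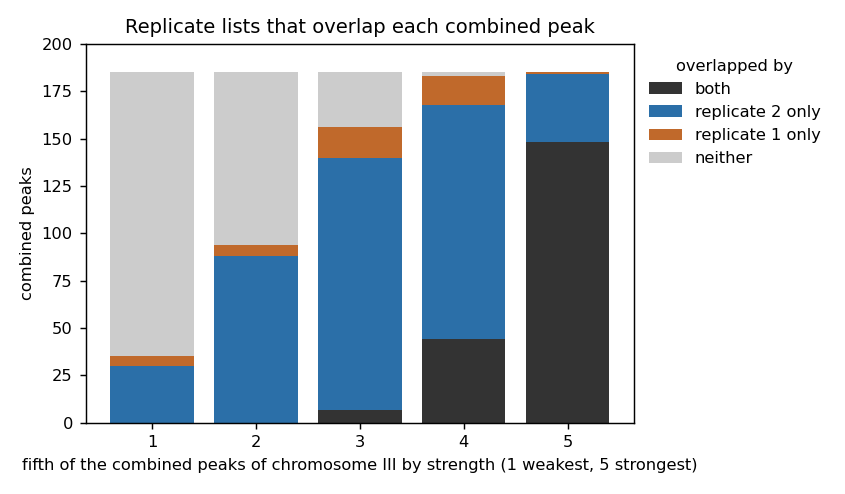
Number of combined peaks of chromosome III overlapped by both replicate lists, replicate 2 alone, replicate 1 alone or neither, in 5 groups of 185 peaks ordered by strength. Peaks in both lists make up 148 of the strongest group and 0 of the weakest, where 150 are in neither.

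The single peak of the strongest group with a replicate 1 partner alone was the wide peak at 9051198. Among those with a replicate 2 partner alone, the strongest was at 8416911 to 8418046, with a combined strength of 20.4 and 23.4 in replicate 2 (rank 18 in that list), 4514 bp from the nearest replicate 1 peak. The next 2 replicate 2 peaks on III without a replicate 1 partner were that at 8799746 to 8800946 (17.5) and one at 7179641 to 7179956 (16.2). After the wide peak, the strongest replicate 1 peaks without a replicate 2 partner were far weaker, with 5.08 at 13710628 to 13710970 and 4.84 at 6164513 to 6165420. The strongest combined peak in neither list, at 8291077 to 8291878, had 6.38. It was followed by those at 6674535 to 6674792 (5.32) and 9078929 to 9078957 (4.71), the latter 29 bp wide. The median distance from a peak in neither list to the nearest replicate peak was 5027.5 bp, and 42 of the 272 (15.4%) were within 1 kb of one. Such distances were not worked out for other chromosomes, so they are not shown to be particular to III.

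Among peaks in both lists, the strongest on III was at 3969054 to 3969802, in the left arm close to the centre. It ranked 11 among all combined peaks with a strength of 38.4, and had 9.22 in replicate 1 (rank 62 in that list) and 27.4 in replicate 2 (rank 8). The second, at 9224501 to 9225186 in the centre, had 30.4 in the combined list, 10.7 in replicate 1 and 17.05 in replicate 2. The third, at 13037008 to 13037492 in the right arm, had 29.2, 9.40 and 19.4. These 3 peaks, from different regions, ranked between 35 and 62 in replicate 1 and between 8 and 55 in replicate 2.

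Among the other 9 of the 12 strongest, replicate 1 strengths ran from 2.19 to 9.93. The peak at 1920855 to 1922133 had 23.7 in the combined list and 24.5 in replicate 2 (rank 11), but 2.19 in replicate 1, where it ranked 1392. That at 12942136 to 12942635 had 23.4 and 22.2 (rank 21), and 2.30 in replicate 1 at rank 1280. At 783232 to 783646 the values were 23.5 in the combined list, 22.5 in replicate 2 and 4.46 in replicate 1, and at 13272691 to 13273809 they were 22.3, 21.1 and 3.50.

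The remaining 5 had replicate 1 strengths from 3.72 to 9.93 and replicate 2 strengths from 12.1 to 17.4, so that they overlap the previous 4 in replicate 1. They were at 8321141 to 8321586 (combined 25.6), 9985506 to 9985931 (23.3), 6526370 to 6526790 (22.2), 9291015 to 9291495 (22.0) and 5845353 to 5846040 (20.5). All but the peak at 9985506, which falls in the right arm, were in the centre. Replicate 2 had the larger value of the pair at all 12. At the ends of the chromosome, the first combined peak, at 6700 to 6954, had 6.11 and overlapped a replicate 2 peak of 6.80, and the last, at 13718367 to 13719676, had 2.06 and overlapped neither list.

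At 191 positions on III exactly 1 peak of each list overlapped. Median strengths at these were 10.5 for combined peaks, 6.51 for replicate 2 and 3.09 for replicate 1. Replicate 2 was the higher of the replicates at 158 of the 191 (82.7%), close to the 82.5% at the 1007 such positions on other chromosomes. The exception with the highest replicate 1 value was at 6971820 to 6972234, where replicate 1 had 11.4, replicate 2 had 6.38 and the combined peak 15.2. Midpoints of the replicate peaks differed by a median of 28 bp and by at most 50 bp at 131 positions (68.6%). Across the 191 positions the replicate strengths were weakly related (Spearman's rho 0.30, Pearson's r 0.36), which is a description across peaks of the same libraries.

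A replicate 1 peak of 3739 bp at 8443545 to 8447283 is left out of these positions because it joined what the other lists divide. It had a strength of 27.9, rank 12 in its list, and overlapped 2 combined peaks, at 8443541 to 8445128 (16.4) and 8445467 to 8447283 (8.00). The replicate 2 peaks at these had 2.28 and 7.51. With the wide peak at 9051198, the 2 strongest replicate 1 peaks of III were thus both wide, at 3782 and 3739 bp. The first had no partner in replicate 2, and the stronger partner of the second, with 7.51, was above the upper quartile of replicate 2 peaks on III (6.197). The third strongest, the 443 bp peak at 6971835 to 6972277, had 11.4.

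Among the 245 replicate 1 peaks on III, 198 had a replicate 2 partner (80.8%, Wilson 95% interval 75.4 to 85.3%), against 76.1% in the whole series. Among the 638 replicate 2 peaks, 199 had a replicate 1 partner (31.2%, 27.7 to 34.9%), against 31.0% in the whole series. The other 5 chromosomes together had 75.3% and 31.0%. For replicate 1 they ran from 73.0% on V to 79.8% on IV, close to III. Neither difference passed the test: 5.55 percentage points for replicate 1 (95% interval -0.28 to 10.6, Fisher's exact p = 0.0619, adjusted p = 0.103) and 0.17 points for replicate 2 (-3.65 to 4.18, Fisher's exact p = 0.926, adjusted p = 0.926). The share of combined peaks in both lists, 21.5% on III and 19.7% elsewhere, differed by 1.78 points (-0.98 to 4.74, Fisher's exact p = 0.212, adjusted p = 0.265). In the stronger 50% of each list the replicate 1 difference was 1.73 points (adjusted p = 0.926 by Fisher's exact test). A few replicate peaks on III had no combined peak, 4 of replicate 1 (1.63%) and 28 of replicate 2 (4.39%). The strongest of these had 2.33 and 3.50. Shares without a combined peak were not worked out for other chromosomes.

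The share of peaks in both lists was also compared along the chromosome. Both lists overlapped 118 of 487 combined peaks in the centre (24.2%, Wilson 95% interval 20.6 to 28.2%) and 81 of 438 in the arms (18.5%, 15.1 to 22.4%), a difference of 5.74 points (0.43 to 10.96) that did not pass adjustment over the 5 comparisons (Fisher's exact p = 0.0372, adjusted p = 0.0931). In the stronger 50% of each list it was 1.74 points (adjusted p = 0.806 by Fisher's exact test). The share was 22.5% in the left arm (17.4 to 28.8%), near that of the centre, and 14.96% in the right (10.96 to 20.1%). The lower share of the arms together thus lay mainly in the right arm. These intervals overlap, which does not show that the arms were alike, and the contrast between the arms was not tested. Replicate 1 peaks were overlapped by replicate 2 in 46 of 53 cases in the left arm (86.8%) and 117 of 143 in the centre (81.8%). In the right arm it was 35 of 49 (71.4%). The share was 80.8% over all of III and 76.1% in the whole series. For replicate 2 peaks overlapped by replicate 1, the left arm had 32.1%, the centre 35.2% and the right arm 21.9%. That share was 31.2% over all of III and 31.0% in the whole series. These contrasts between regions were not tested.

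The central share of combined peaks was lowest on III among the autosomes, at 52.6% against 54.8% on I, 57.9% on II, 55.98% on IV and 59.6% on V, while X had 41.5%. The other 4 autosomes together had 56.9%, which makes III minus the others -4.25 points (-7.81 to -0.70), and the difference did not pass adjustment (Fisher's exact p = 0.0206, adjusted p = 0.0931). With I left out of the comparison it was -5.19 points and passed (adjusted p = 0.0326 by Fisher's exact test). Chromosome I had the share closest to that of III, so leaving it out widens the difference by construction. Over the other alternatives the adjusted p ran from 0.0815 to 0.265 by Fisher's exact test. Replicate 1 had 58.4% of its III peaks in the centre against 63.1% on the other autosomes, and replicate 2 had 52.98% against 57.0%. III was lowest of the 5 autosomes in each list. The test counts neighbouring peaks as independent, and III is 1 chromosome.

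**Figure D5:**
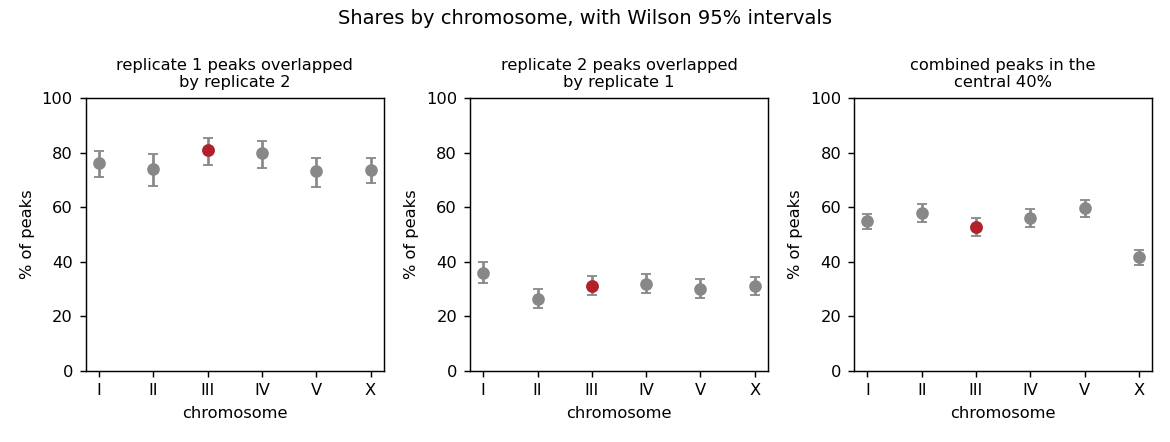
Percent of peaks per chromosome, with Wilson 95% intervals, for replicate 1 peaks overlapped by replicate 2, replicate 2 peaks overlapped by replicate 1, and combined peaks in the central 40%, with III in red. III has the highest point in the first panel (80.8%, with IV at 79.8%). It has the lowest of the autosomes in the third (52.6%), where its interval overlaps those of I, II and IV but not that of V.

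In the values that follow, III also lay among the other chromosomes. Its 67.5 combined peaks per Mb came after I with 82.8 and X with 69.5, ahead of the other 3. Its median peak width of 368 bp was within the 359 to 383 bp of the others, and its median strength of 4.10 within 3.799 to 4.57. The median distance between neighbours, 7322.5 bp, was within 5602 to 9895 bp. Stretches over 100 kb numbered 7 on III, as on I and X, against 13 on II, 18 on IV and 30 on V. These values describe the lists and were not tested.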

How the data were processed

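The authors deposited 3 lists of peaks, 1 for each replicate and 1 combined. PeakSeq called the peaks, on WormBase WS190, per the file headers and feature lines. The one value per peak is the q-value the authors' caller gave it, which was below 0.01 for every peak, and strength here is −log10 of that deposited q-value. The caller's version, the aligner, the input for each list and how lists were combined were details not given in the sources used here. Read totals were not used here, so depth is unknown. The labels do not say whether replicates came from separate cultures.

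Peaks of chromosome III were taken by column 1. Overlap meant 1 bp or more. The stretch from the first start to the last end in any list was divided into a centre of 40% and arms of 30% each, and a peak was placed by its midpoint. Windows were 100 kb. Distances ran from the end of a peak to the start of the next. Shares carry Wilson 95% intervals, for counting error only. The 5 share comparisons used Fisher's exact test, two-sided, with Benjamini-Hochberg adjustment over the 5, and counted neighbouring peaks as independent, although peaks cluster. Overlap counting was tested on simulated data. Members, named peaks and tests were chosen with earlier results of these data known. Peaks named are the 12 strongest in both replicate lists, the 3 strongest in neither, the 3 strongest of each replicate list without a partner in the other, the 3 widest and 3 narrowest, the outermost, the 3 strongest of the windows at 7.5 and 8.8 Mb, and those of the largest runs; the 5 densest windows and 6 longest empty stretches follow the same rule. Other peaks named were chosen after their values were seen. Alternatives were reciprocal overlap of 50%, midpoints within 200 bp, the stronger 50% of each list, a narrower centre, windows moved by 50 kb, peaks within 1 kb merged, chromosome I left out, and each replicate list alone. Python 3.11.15, numpy 2.4.6, pandas 2.3.3, scipy 1.17.1 and matplotlib 3.10.9 were used. No genome or annotation of WS190 was used here, so no peak was assigned to a gene and no sequence is shown.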

Additional observations from a re-analysis of the deposited data

How the results depend on the processing

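None of the 5 share comparisons passed an adjusted p of 0.05 as reported, and 1 of their alternatives did. With chromosome I left out of the other autosomes, the central share on III minus theirs was -5.19 percentage points (adjusted p = 0.0326 by Fisher's exact test). Chromosome I had the central share closest to that of III. Over the other alternatives of that comparison the adjusted p ran from 0.0815 to 0.265 by Fisher's exact test. The difference in the share of replicate 2 peaks overlapped, 0.17 points as reported, became -0.48 points with reciprocal overlap and -0.37 points in the stronger 50% of each list; the cause was not tested. In the stronger 50% the replicate 1 difference was 1.73 points in place of 5.55, and that between the centre and arms of III 1.74 in place of 5.74. From either replicate list alone, the central share difference ranged from -4.78 to -4.03 points, the share of the peaks of III ranged from 21.6% to 21.9% in the left arm, from 52.98% to 58.4% in the centre and from 20.0% to 25.1% in the right arm, the median distance ranged from 11345 to 27373 bp and the median width from 353 to 354.5 bp. The median distance was 9236 bp with peaks within 1 kb merged and 15844.5 bp among the stronger 50% of combined peaks, which are fewer by construction, and the median width there was 422 bp. The densest window held 18 peaks when windows were moved by 50 kb and 15 with peaks merged. No paired analysis was possible because each list gives 1 value per peak, with nothing per library, and both inputs have replicate number 1. An absent call is not absent binding, since the depth that a call needs is unknown.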
